A study of Mus musculus with 9 samples.

Results

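Transcript levels of 10 genes that hold the oocyte in meiotic arrest or release it were compared between mouse metaphase II oocytes of 3 genotypes. The genes were taken by symbol: Gpr3, Pde3a, Wee2, Cdc25b, Cdk1, Ccnb1, Ccnb2, Mos, Fbxo5 and Cdc20. The annotation used here gave 1 probe set to each of 9 of them, none shared with another gene, out of 19938 genes with a probe set of their own. Ccnb1, the gene of cyclin B1, is not analysed here. All 9 passed the filter on low signal (log2 signal of at least 4 in at least 3 arrays), as did 17324 genes in all, and every one of the 9 was above that floor in each array.

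The groups were Dgcr8 knockout oocytes, Dicer knockout oocytes and wild-type oocytes, each with 3 arrays labelled as biological replicates and all of strain C57BL/6. All females had been superovulated with 7.5 IU of PMSG and 7.5 IU of hCG, and ovulated oocytes were taken from the oviducts 14 to 16 h after hCG, stripped of cumulus cells with hyaluronidase and washed. Dgcr8 is needed to cut primary microRNA transcripts, and Dicer to make both microRNAs and endogenous small interfering RNAs. How the knockouts were made, in which cells the genes were deleted, the age of the females and the number of oocytes per array are unstated in the labels used here. Values are log2 signals made by the authors with GCRMA, so they are relative between arrays, and levels of different probe sets cannot be set against each other.

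The prophase-arrested oocyte is held by cyclic AMP. The receptor GPR3 keeps adenylyl cyclase active, and protein kinase A then favours the kinase WEE2, which inhibits CDK1, over the phosphatase CDC25B, which activates it. When the hormone surge lets the phosphodiesterase PDE3A destroy cyclic AMP, CDK1 with its B-type cyclins drives entry into meiosis, and cyclins are later destroyed through the anaphase-promoting complex, which CDC20 activates and EMI1, the product of Fbxo5, inhibits. The kinase MOS then acts through the MAP kinase cascade to hold the ovulated egg at metaphase II, the stage measured here.

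Each targeted gene was lowest in the arrays of its own knockout. Dgcr8 stood at 0.106 of the wild-type level in Dgcr8 knockout and Dicer1 at 0.517 in Dicer knockout oocytes. The Dicer1 value alone does not show how complete that knockout was. Dgcr8 was also lower in Dicer knockout than in wild-type oocytes, by -0.50 (log2), and did not pass limma (adjusted p 0.0644). Dgcr8 averaged 5.71 ± 0.26 in Dgcr8 knockout, 8.46 ± 0.23 in Dicer knockout and 8.96 ± 0.10 in wild-type oocytes (log2 signal, SD, n = 3 each), and Dicer1 averaged 11.68 ± 0.06, 10.72 ± 0.13 and 11.67 ± 0.01 in the same order. Of 20 oocyte markers 19 had a probe set, and their mean log2 signal was 10.91 to 11.01 in Dgcr8 knockout, 10.98 to 11.15 in Dicer knockout and 10.961 to 11.004 in wild-type arrays. Of 29 cumulus and granulosa markers 26 had a probe set, and 3, 3 and 4 of the 26 had a group mean below the floor in that order. Their mean log2 signal was 5.018 to 5.088, 5.047 to 5.089 and 5.044 to 5.084 in the same order. Their summed linear signals were 1858 to 2012, 1692 to 1931 and 1824 to 1920, sums weighted to the genes of highest signal. No pair of arrays held identical values, and array pairs correlated across the tested genes at r between 0.978 and 0.996.

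The promoters of the genes are shown for short motifs that the choice of genes did not use. The motifs themselves were chosen with the sequences at hand. RefSeq windows of GRCm38.p6, from 250 bases before to 50 after a transcription start, were matched by symbol for 8 of the 10 genes. The windows of Wee2 (chr6:40442613-40442912) and Cdc25b (chr2:131186698-131186997), both on the plus strand, lie inside the annotated genes. Those genes begin at 40435246 and 131186436, so these 2 windows belong to internal starts. 4 windows are printed 5′ to 3′ on the gene's strand: those of Gpr3 and Fbxo5, the genes that changed in both comparisons of Dicer knockout oocytes, and those of Cdk1 and Ccnb2, which hold both motifs and did not pass the test. Capitals mark CCAAT, the box bound by the factor NF-Y, and TTTGAA, the cell cycle homology region (CHR) of mitotic genes, on either strand, so that ATTGG and TTCAAA are the same motifs read on the other strand. Gpr3 is at chr4:133212487-133212786, Fbxo5 at chr10:5805416-5805715, Cdk1 at chr10:69352863-69353162 and Ccnb2 at chr9:70421505-70421804, all on the minus strand.
Gpr3: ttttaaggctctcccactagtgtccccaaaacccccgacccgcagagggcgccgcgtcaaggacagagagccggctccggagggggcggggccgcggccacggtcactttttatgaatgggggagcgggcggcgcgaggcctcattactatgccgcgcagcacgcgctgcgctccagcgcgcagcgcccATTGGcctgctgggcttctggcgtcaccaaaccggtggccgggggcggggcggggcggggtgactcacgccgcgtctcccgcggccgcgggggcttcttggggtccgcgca
Fbxo5: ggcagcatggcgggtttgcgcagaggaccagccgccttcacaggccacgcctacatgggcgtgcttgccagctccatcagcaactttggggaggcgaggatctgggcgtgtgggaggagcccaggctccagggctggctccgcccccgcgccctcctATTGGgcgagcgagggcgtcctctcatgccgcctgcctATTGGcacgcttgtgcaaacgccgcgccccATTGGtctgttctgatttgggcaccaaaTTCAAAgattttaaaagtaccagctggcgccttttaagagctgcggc
Cdk1: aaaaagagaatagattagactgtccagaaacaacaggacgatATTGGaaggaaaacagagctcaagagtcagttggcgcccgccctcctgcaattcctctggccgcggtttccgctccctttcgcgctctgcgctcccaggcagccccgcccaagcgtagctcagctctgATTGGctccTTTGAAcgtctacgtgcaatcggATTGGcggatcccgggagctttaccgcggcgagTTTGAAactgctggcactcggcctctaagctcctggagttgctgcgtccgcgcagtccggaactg
Ccnb2: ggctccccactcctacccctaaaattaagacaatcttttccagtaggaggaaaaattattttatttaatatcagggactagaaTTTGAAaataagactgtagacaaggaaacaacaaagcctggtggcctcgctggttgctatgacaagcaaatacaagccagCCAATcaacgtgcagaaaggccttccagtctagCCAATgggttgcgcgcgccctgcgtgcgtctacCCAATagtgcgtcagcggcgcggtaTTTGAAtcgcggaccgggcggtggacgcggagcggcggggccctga

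All 8 windows held CCAAT on either strand, which 37.4% of all 32851 promoter windows hold, and 4 of 8 held TTTGAA, which 17.9% hold. The 4 with TTTGAA were Ccnb2, Cdk1, Fbxo5 and Cdc20. Among windows with at least 50% G and C, CCAAT stood in 35.0% and TTTGAA in 10.2%. In Ccnb2, the boxes began 87, 54 and 21 bases before the start, 33 bases apart. A pair in Cdk1 and the pair in Ccnb1 lay 32 bases apart. The other neighbouring boxes were not spaced alike: 128 bases in Cdk1, 158 in Wee2, 45 in Cdc20, and 38 and 30 in Fbxo5. The boxes of Fbxo5 began 93, 55 and 25 bases before the start, with TTTGAA covering bases 3 to 8 counted from 0 at the start. Gpr3 held 1 CCAAT, 61 bases before the start, and no TTTGAA. In all 11 motifs were searched on both strands, CCAAT and TTTGAA among them, and all were chosen with the sequences at hand. The shares are therefore a description and not a test. Of the other motifs, GGGCGG stood in 7 of 8 windows (35.7% of all windows and 55.4% of those with at least 50% G and C). CANNTG stood in 5 of 8 (72.3% and 68.0%). TATAAA stood in 0 of 8 (13.6% and 5.88%), as did CACGTG (7.15% and 9.26%), TGACGTCA (1.79% and 2.56%), GCGGGAA (4.60% and 7.01%) and TTTGGCGC (0.514% and 0.762%). TGACG stood in 3 of 8 (20.8% and 26.9%) and TTTCGCGC in 1 of 8 (0.323% and 0.471%). Of the 8 windows, Wee2 alone was below 50% G and C, at 46%. TGACG lies within TGACGTCA and CACGTG is 1 form of CANNTG, so these counts overlap. A match is a description of letters and not a mapped binding site.

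**Figure D1:**
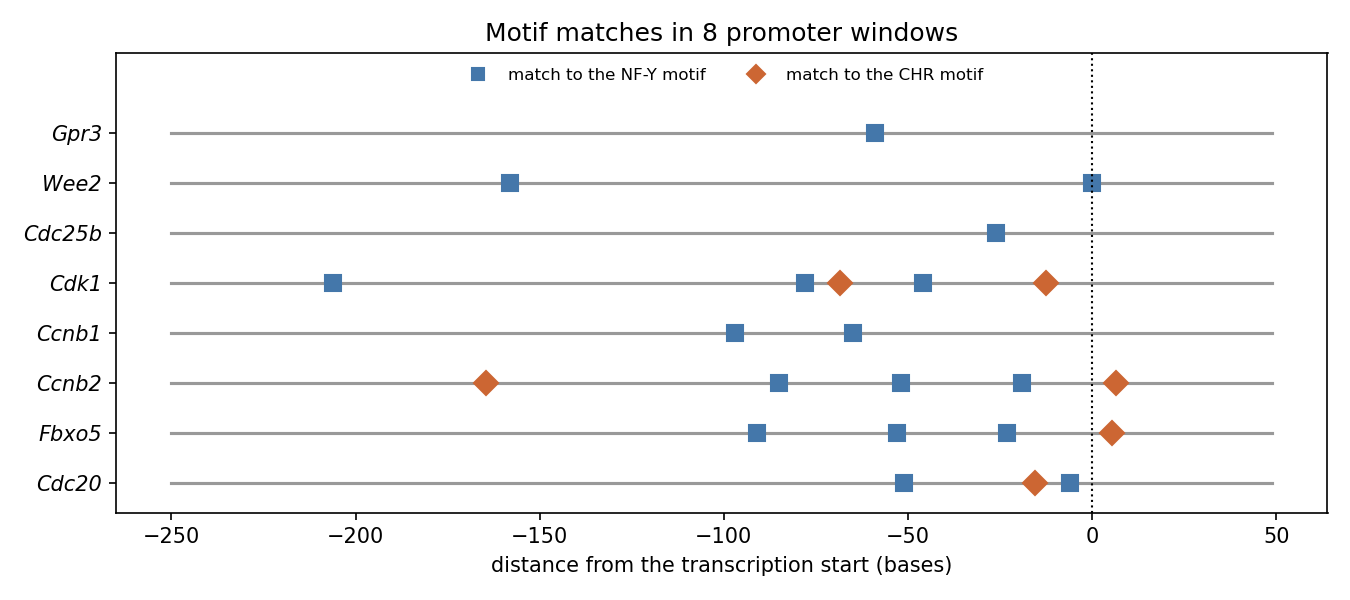
Matches to the NF-Y motif (CCAAT, squares) and the CHR motif (TTTGAA, diamonds) on either strand in 8 promoter windows, by distance in bases from the transcription start (dotted line at 0). All 8 genes have at least 1 square, and 4 of them, Cdk1, Ccnb2, Fbxo5 and Cdc20, also have a diamond.

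In Dicer knockout oocytes, Fbxo5 rose and Gpr3 fell relative to wild-type, and the other 7 measured genes did not pass the test. In Dgcr8 knockout oocytes none of the 9 passed. Against Dgcr8 knockout oocytes, Dicer knockout oocytes again had higher Fbxo5 and lower Gpr3, and Pde3a was called lower as well. Any 2 of these comparisons share 1 group of arrays, so they are not independent of each other. Genes were called at an adjusted p under 0.05 from limma, fitted over all 9 arrays and adjusted by Benjamini-Hochberg over 17324 genes.

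In the Dicer knockout comparison with wild-type, 2 of 9 genes were called, 1 higher and 1 lower. The background was 11.3% of all genes tested, 4.87% higher and 6.47% lower. The median log2 change of the 9 was -0.09, against -0.03 over all genes, and the median absolute change was 0.11 for both. The groups did not overlap for 3 of the 9 (Fbxo5, Gpr3 and Pde3a), against 26.2% of all genes. For Dicer knockout against Dgcr8 knockout, 3 of 9 were called, 1 higher and 2 lower, beside 13.4% of all genes, 5.48% higher and 7.92% lower. The groups did not overlap for 3 of 9 there, against 26.1% of all genes. In the Dgcr8 knockout comparison, 0 of 9 passed limma, and 0 of 9 had an unadjusted p under 0.05. Over all genes 4 passed (0.0231%), Dgcr8 among them, and 457 had an unadjusted p under 0.05. The groups overlapped for all 9 genes in that comparison, while they did not for 6.54% of all genes.

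**Figure D2:**
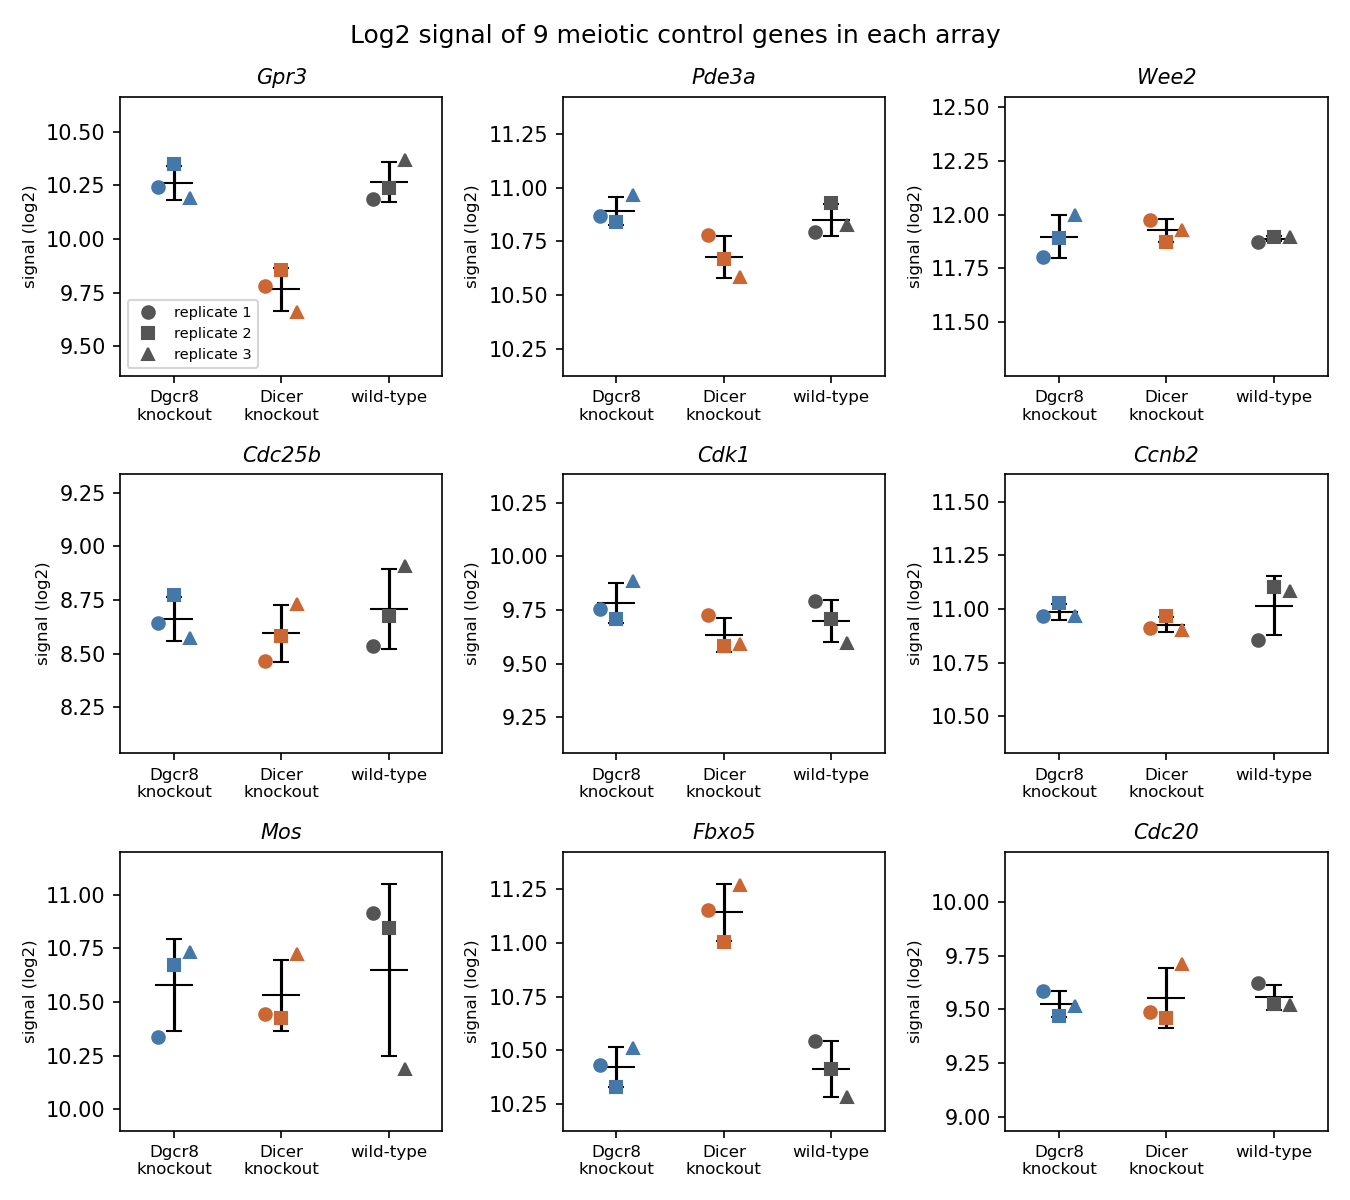
Log2 signal of the 9 measured genes in each array of Dgcr8 knockout, Dicer knockout and wild-type oocytes, with 1 panel per gene and axes of equal length. Points are arrays, shaped by replicate, and bars are the mean and SD of 3 arrays. The Dicer knockout arrays stand apart above the others for Fbxo5, at 11.01 to 11.27, and below them for Gpr3, at 9.66 to 9.85.

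Gpr3 encodes the receptor that keeps cyclic AMP high in the arrested oocyte. Its probe set (10517005, Entrez gene 14748) read 10.24, 10.35 and 10.19 in Dgcr8 knockout arrays, 9.78, 9.85 and 9.66 in Dicer knockout arrays, and 10.19, 10.24 and 10.37 in wild-type arrays (log2 signal). The 3 Dicer knockout arrays were the lowest of the 9, and the other groups overlapped each other. In Dicer knockout oocytes the log2 change from wild-type was -0.50 ± 0.07 (SE), with a 95% interval of -0.66 to -0.34 and a limma adjusted p of 0.00171, which is 0.708 of the wild-type level. A fall of at least this size was seen in 3.87% of all genes tested. Relative to Dgcr8 knockout oocytes the change was also -0.50 (adjusted p 0.00167). In Dgcr8 knockout oocytes it was -0.0034 (95% interval -0.16 to 0.16).

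Both Gpr3 calls held under all 19 alternatives that gave a change, with values of -0.55 to -0.45 against wild-type (adjusted p 0.000979 to 0.00995). In RNA pooled from oocytes, a lower level in each cell and fewer cells with the transcript cannot be told apart. An exact permutation test on 3 arrays against 3 could not go below a two-sided p of 0.10, so the calls rest on the spread that limma shares between genes and on all 9 arrays. Markers of other cells gave these values beside the calls: of 23 cumulus and granulosa markers tested, Gata4 alone was called in Dicer knockout against wild-type oocytes. It was higher (0.59, limma adjusted p 0.0140, but 0.0562 without wild-type replicate 3). That is 4.35% of the list, beside 11.3% of all genes, and 9 of the 23 had a change above 0 (median -0.03). Of 12 immune and blood markers, 10 had a probe set, with summed linear signals of 341 to 371 in Dgcr8 knockout, 365 to 531 in Dicer knockout and 311 to 364 in wild-type arrays. Of the 8 tested, Cd68 alone was called against wild-type, 12.5% beside 11.3% of all genes. It was higher (0.96, limma adjusted p 0.0110, but 0.0507 without wild-type replicate 3), and 6 of the 8 had a change above 0 (median 0.07). In Dicer knockout replicate 3 the mean log2 signal over the immune and blood markers was 5.21, against 4.69 to 4.85 in the other 8 arrays. That array was also the lowest for Gpr3 and the highest for Fbxo5, and without it their changes from wild-type were -0.45 (adjusted p 0.00601) and 0.67 (adjusted p 0.00205). Of the 19 oocyte markers, limma called 3 higher and 1 lower for Dicer knockout against wild-type, 21.1% beside 11.3% of all genes. Against Dgcr8 knockout it called 4 higher and 1 lower, 26.3% beside 13.4% of all genes. Of 12 oviduct markers, 11 were measured and none was called in any comparison by limma, also at an unadjusted p under 0.05. Their part in the results was not tested.

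Pde3a, which encodes the phosphodiesterase that breaks down cyclic AMP in the oocyte, was the other gene of arrest signalling. Its probe set (10542575, Entrez gene 54611) read 10.87, 10.84 and 10.96 in Dgcr8 knockout, 10.78, 10.67 and 10.59 in Dicer knockout and 10.79, 10.93 and 10.83 in wild-type arrays. All 3 Dicer knockout arrays lay below the lowest array of the other groups, by little: 10.78 against 10.79 at the nearest. The log2 change was -0.17 ± 0.06 (SE; 95% interval -0.31 to -0.04) against wild-type, and it did not pass limma (adjusted p 0.110). Against Dgcr8 knockout oocytes it was -0.21 (95% interval -0.35 to -0.08; adjusted p 0.0458), just past the threshold. That call was kept in 4 of 19 alternatives, and it was lost without any 1 array except Dicer knockout replicate 1 (adjusted p up to 0.146 without Dgcr8 knockout replicate 3). With quantile normalization, Pde3a was also called lower against wild-type, by -0.24 (adjusted p 0.0145).

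The enzymes that set the state of CDK1 did not pass the test in any comparison. Wee2, the oocyte kinase that holds CDK1 inactive, read 11.802, 11.893 and 11.999 in Dgcr8 knockout, 11.98, 11.87 and 11.93 in Dicer knockout and 11.87, 11.90 and 11.90 in wild-type arrays (probe set 10537480). The groups overlapped, and Wee2 had the smallest spread of the 9 genes, a pooled SD of 0.06 within groups. Its log2 change was 0.01 (95% interval -0.10 to 0.12) in Dgcr8 knockout and 0.04 (-0.07 to 0.15) in Dicer knockout oocytes, each against wild-type. Cdc25b, the phosphatase that removes the inhibitory phosphates from CDK1, read 8.64, 8.77 and 8.57 in Dgcr8 knockout, 8.47, 8.58 and 8.73 in Dicer knockout and 8.54, 8.68 and 8.91 in wild-type arrays (probe set 10476252). The groups overlapped here as well. The changes were -0.04 (-0.29 to 0.20) and -0.11 (-0.36 to 0.14) in the same order.

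Cdk1, the kinase itself, read 9.75, 9.71 and 9.89 in Dgcr8 knockout, 9.73, 9.58 and 9.59 in Dicer knockout and 9.79, 9.71 and 9.60 in wild-type arrays (probe set 10369815). Its highest array was Dgcr8 knockout replicate 3, and the groups overlapped. The log2 change was 0.08 (95% interval -0.08 to 0.25) in Dgcr8 knockout and -0.07 (-0.23 to 0.10) in Dicer knockout oocytes, and -0.15 between Dicer and Dgcr8 knockout (-0.32 to 0.02; limma adjusted p 0.245). Ccnb2, a B-type cyclin that pairs with CDK1, read 10.97, 11.03 and 10.97 in Dgcr8 knockout, 10.91, 10.97 and 10.90 in Dicer knockout and 10.86, 11.10 and 11.08 in wild-type arrays (probe set 10594774). Wild-type replicate 1 was the lowest of the 9 arrays and the other wild-type arrays the highest, so the wild-type SD (0.14) exceeded that of the knockouts (0.04 and 0.03). The Ccnb2 changes were -0.03 (-0.17 to 0.11) in Dgcr8 knockout and -0.09 (-0.23 to 0.05) in Dicer knockout oocytes. Without wild-type replicate 1 the Dicer knockout value was -0.17, with an adjusted p of 0.0659.

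Mos, the kinase upstream of the MAP kinase cascade, varied most between arrays of 1 group. It read 10.34, 10.67 and 10.73 in Dgcr8 knockout, 10.44, 10.43 and 10.72 in Dicer knockout and 10.91, 10.84 and 10.19 in wild-type arrays (probe set 10511330, Entrez gene 17451). Wild-type arrays held both the highest and the lowest value of all 9, and every group overlapped the others. The pooled SD within groups was 0.28, against a median of 0.12 over all genes, and 6.74% of genes had a larger one. The log2 change was -0.07 (95% interval -0.47 to 0.34) in Dgcr8 knockout and -0.12 (-0.52 to 0.29) in Dicer knockout oocytes, the widest intervals of the 9 genes. Without wild-type replicate 3 the values were -0.30 in Dgcr8 knockout and -0.35 in Dicer knockout oocytes (limma adjusted p 1 and 0.163), and without wild-type replicate 1 they were 0.06 and 0.01. Changes in Mos smaller than these intervals were not resolved by these arrays.

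Fbxo5 encodes EMI1, which blocks the anaphase-promoting complex and so spares cyclin B. Its probe set (10361375, Entrez gene 67141) read 10.43, 10.33 and 10.51 in Dgcr8 knockout arrays, 11.15, 11.01 and 11.27 in Dicer knockout arrays, and 10.54, 10.41 and 10.28 in wild-type arrays. The 3 Dicer knockout arrays were the highest of the 9, and Dgcr8 knockout and wild-type arrays overlapped. In Dicer knockout oocytes Fbxo5 was higher than in wild-type by 0.73 ± 0.08 (log2, SE; 95% interval 0.54 to 0.92; limma adjusted p 0.000451), a 1.66-fold level with an interval of 1.46 to 1.89. A rise of at least this size was seen in 2.66% of all genes tested. Against Dgcr8 knockout oocytes the rise was 0.72 (adjusted p 0.000465). In Dgcr8 knockout oocytes the change was 0.01 (95% interval -0.18 to 0.20). The Dicer knockout calls held under all 19 alternatives that gave a change, at 0.66 to 0.80 against wild-type (adjusted p 0.000233 to 0.00428).

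Cdc20, the activator of the anaphase-promoting complex that acts through anaphase onset, read 9.59, 9.47 and 9.52 in Dgcr8 knockout, 9.49, 9.46 and 9.71 in Dicer knockout and 9.62, 9.52 and 9.52 in wild-type arrays (probe set 10515744). The groups overlapped. Its change from wild-type was -0.03 (95% interval -0.20 to 0.14) in Dgcr8 knockout and -0.0021 (-0.17 to 0.17) in Dicer knockout oocytes. In Dgcr8 knockout oocytes the 95% intervals of all 9 genes lay within 0.5 (log2) of 0, and their changes ran from -0.07 to 0.08. In Dicer knockout oocytes 6 of 9 intervals lay within 0.5 of 0 and all 9 within 1.

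**Figure D3:**
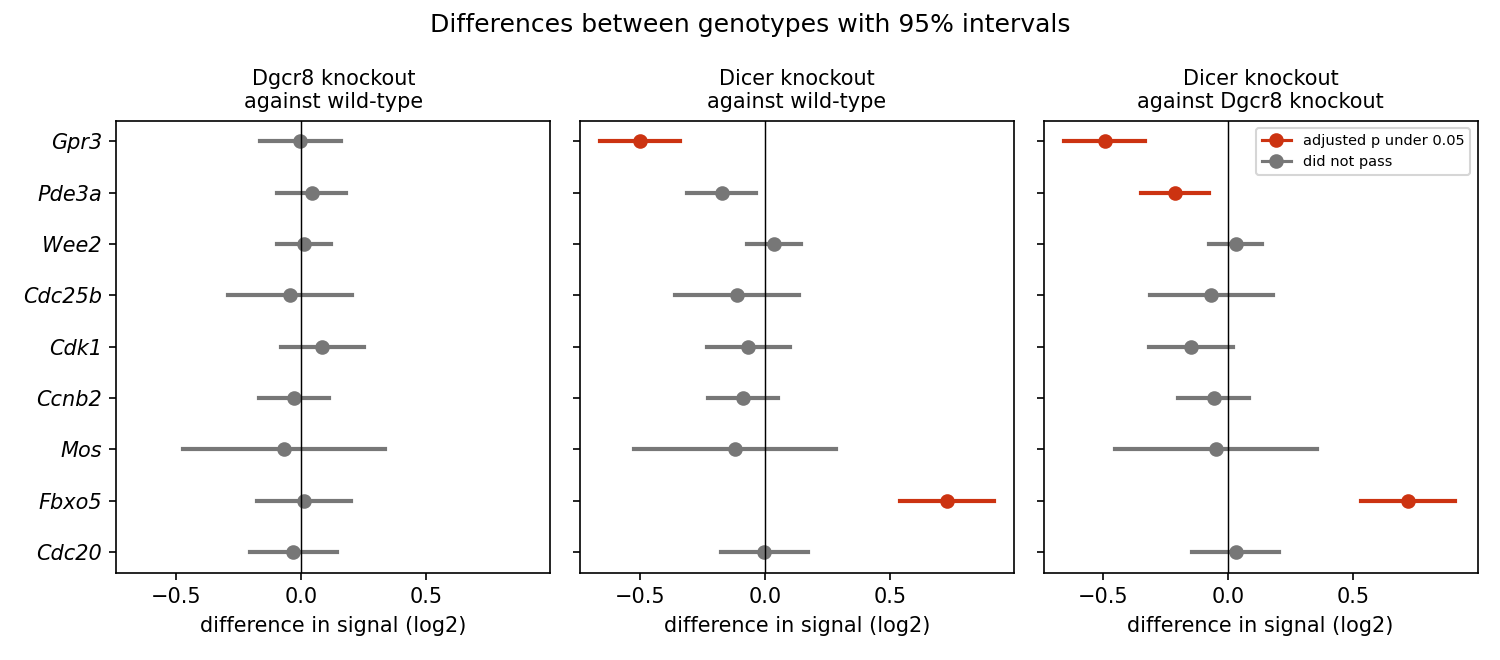
Difference in log2 signal between genotypes for the 9 genes, as the limma estimate (point) with its 95% interval (line), in 3 comparisons. Red marks an adjusted p under 0.05: none in Dgcr8 knockout against wild-type, Gpr3 and Fbxo5 in Dicer knockout against wild-type, and these with Pde3a in Dicer knockout against Dgcr8 knockout.

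The genes whose wild-type-centred signal over the 9 arrays lay nearest to that of Fbxo5 were Pid1, Med26 and Rps2, at root mean square differences of 0.08, 0.08 and 0.09 (log2). Their Dicer knockout changes were 0.78, 0.66 and 0.70. Nearest to Gpr3 were Gltp, Cdk20 and Zfp108, at 0.05, 0.05 and 0.06, with changes of -0.51, -0.48 and -0.50. Within 0.1 of the pattern lay 6 genes for Fbxo5 and 53 for Gpr3. This likeness is a description over 9 arrays that share 3 genotypes.

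Further genes of arrest and resumption were read from the same fit, in 4 lists. The lists were written from general knowledge, but with earlier results of these data known. Of 96 genes listed, 87 were tested. Dicer knockout against wild-type oocytes gave 5 higher and 6 lower calls, 12.6% in all, near the 11.3% of all genes. Their median log2 change was -0.04, against -0.03 over all genes. The split was 4 higher and 12 lower with quantile normalization and 5 higher and 4 lower with arrays centred on their medians. Without wild-type replicate 1 only 6 were called. In Dicer knockout against Dgcr8 knockout oocytes 5 were higher and 7 lower, 13.8% in all, near the 13.4% of all genes. The split there was 4 and 13 with quantile normalization and 5 and 4 with centred arrays. Over all genes, quantile normalization gave 821 higher and 1646 lower calls against wild-type and 911 and 1968 against Dgcr8 knockout oocytes. In Dgcr8 knockout against wild-type oocytes 0 of 87 passed limma, beside 0.0231% of all genes. There 3 had an unadjusted limma p under 0.05, beside 457 of 17324 genes.

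Of 17 tested genes of cyclic AMP and cyclic GMP signalling, 1 rose and 2 fell in Dicer knockout oocytes relative to wild-type. That is 17.6% of the list, beside 11.3% of all genes (4.87% higher and 6.47% lower). The median change was -0.03, as over all genes. Pde4d, a cyclic AMP phosphodiesterase known in the follicle from granulosa cells, read 7.97, 8.41 and 8.32 in Dgcr8 knockout, 6.62, 6.47 and 6.55 in Dicer knockout and 7.67, 8.22 and 7.88 in wild-type arrays. The Dicer knockout arrays were the lowest, and the change from wild-type was -1.38 ± 0.15 (SE; limma adjusted p 0.000356). The other Pde4d probe sets differed by -0.33 and -0.52, and the mean over its probe sets was -0.74. Prkar2b, a regulatory subunit of protein kinase A, read 8.84, 8.45 and 8.64 in Dgcr8 knockout, 7.58, 8.07 and 7.83 in Dicer knockout and 8.56, 8.61 and 8.63 in wild-type arrays. Its Dicer knockout arrays were all below the others, by -0.77 ± 0.13 against wild-type (SE; adjusted p 0.00476). Pde5a, a cyclic GMP phosphodiesterase, was higher by 0.41 (adjusted p 0.00997) at a signal near the floor, 4.84 in Dicer knockout and 4.43 in wild-type oocytes.

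Of 26 tested regulators of CDK1 and cyclins, 2 rose and 1 fell in Dicer knockout oocytes relative to wild-type. That is 11.5% of the list, near the 11.3% of all genes (4.87% higher and 6.47% lower). The median change was -0.03, as over all genes. Ccnh, the cyclin of the kinase complex that activates CDKs, read 7.33, 7.51 and 7.96 in Dgcr8 knockout, 8.86, 8.83 and 8.69 in Dicer knockout and 7.78, 7.74 and 7.34 in wild-type arrays. The Dicer knockout arrays were the highest, by 1.18 ± 0.17 over wild-type (SE; limma adjusted p 0.00158), and the call held under all 19 alternatives. Ccna2, the gene of cyclin A2, was higher by 0.20 (adjusted p 0.0202), and Aurka, the spindle pole kinase, had a change of -0.24 (adjusted p 0.0209). Both are small changes whose calls were lost under several alternatives. For Ccna2 the adjusted p was 0.0731 without wild-type replicate 1, 0.0791 without wild-type replicate 2, 0.0581 without Dicer knockout replicate 1, 0.0519 without Dicer knockout replicate 3, 0.130 with quantile normalization (a change of 0.13) and 0.0842 with eBayes neither trended nor robust. For Aurka it was 0.0847 without wild-type replicate 1, 0.0888 without wild-type replicate 3, 0.0612 without Dicer knockout replicate 3, 0.0546 with arrays centred on their medians and 0.0678 with eBayes neither trended nor robust.

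Of 20 tested genes of the MOS to MAP kinase cascade and metaphase II arrest, 0 rose and 3 fell in Dicer knockout oocytes relative to wild-type. That is 15% of the list, near the 11.3% of all genes (4.87% higher and 6.47% lower). The median change was -0.09, against -0.03 over all genes. Ppp3ca, the catalytic subunit of calcineurin, read 8.10, 8.19 and 8.11 in Dgcr8 knockout, 7.47, 7.44 and 7.30 in Dicer knockout and 7.87, 7.79 and 7.77 in wild-type arrays. The 3 groups did not overlap, in the order Dgcr8 knockout, wild-type and Dicer knockout from high to low. The change from wild-type was -0.41 ± 0.08 (SE; limma adjusted p 0.0114, and 0.0517 without wild-type replicate 1) in Dicer knockout oocytes. In Dgcr8 knockout oocytes it was 0.32 and did not pass (adjusted p 1, unadjusted p 0.00339). Fbxo43, which encodes EMI2, the inhibitor of the anaphase-promoting complex that holds the egg at metaphase II, had a change of -0.20 (adjusted p 0.0397). That call was kept in 8 of 19 alternatives and was lost without any 1 of the wild-type arrays, Dicer knockout replicates 1 or 2 or Dgcr8 knockout replicate 3 (adjusted p 0.0602 to 0.134). Ppp2r5c, a regulatory subunit of the phosphatase PP2A, had -0.26 (adjusted p 0.0125, and 0.0544 without wild-type replicate 1). Its other probe sets ran from -0.19 to 0.12, and with the mean of its probe sets the change was -0.12 and no longer called (adjusted p 0.255). Camk2g, the calcium-dependent kinase of egg activation, was called lower against Dgcr8 knockout oocytes (-0.28, adjusted p 0.0272), a call lost without Dgcr8 knockout replicates 1 (0.0705) or 3 (0.0941) or Dicer knockout replicate 2 (0.0712), and it missed the threshold against wild-type (-0.21, adjusted p 0.0907). Against wild-type it was called with quantile normalization (-0.28, adjusted p 0.0158), and against Dgcr8 knockout oocytes it was not called with centred arrays (0.0607), eBayes neither trended nor robust (0.0587) or only the 2 groups compared (0.0574).

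Of 24 genes of the anaphase-promoting complex and its partners, 2 rose and 0 fell in Dicer knockout oocytes relative to wild-type. That is 8.33% of the list, beside 11.3% of all genes (4.87% higher and 6.47% lower). The median change was -0.01, against -0.03 over all genes. Ube2c, the ubiquitin-conjugating enzyme of the complex, read 9.82, 10.02 and 9.64 in Dgcr8 knockout, 10.30, 10.52 and 10.41 in Dicer knockout and 9.74, 9.90 and 9.86 in wild-type arrays. The Dicer knockout arrays were the highest, by 0.58 ± 0.10 over wild-type (SE; limma adjusted p 0.00380), and the call held under all 19 alternatives. Anapc13, a small subunit of the complex, read 7.53, 8.05 and 8.49 in Dgcr8 knockout, 10.13, 10.22 and 10.05 in Dicer knockout and 9.29, 9.14 and 7.95 in wild-type arrays. Its Dicer knockout arrays were the highest and close together, whereas wild-type replicate 3 lay more than 1 below the other wild-type arrays. The change over wild-type was 1.34 ± 0.33 (SE; adjusted p 0.0264), and the call was lost without Dicer knockout replicates 1 (0.0776), 2 (0.0663) or 3 (0.0588), with only the 2 groups compared (0.0522) and with array weights (0.0532). Against Dgcr8 knockout oocytes the change was 2.11 (adjusted p 0.00241). Anapc16, another subunit, was called lower against Dgcr8 knockout oocytes (-0.26, adjusted p 0.0418) and had -0.14 against wild-type (adjusted p 0.291). The call was kept in 7 of 19 alternatives. It was lost without any 1 array except Dgcr8 knockout replicate 2 and Dicer knockout replicate 2 (adjusted p 0.0589 to 0.138).

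**Figure D4:**
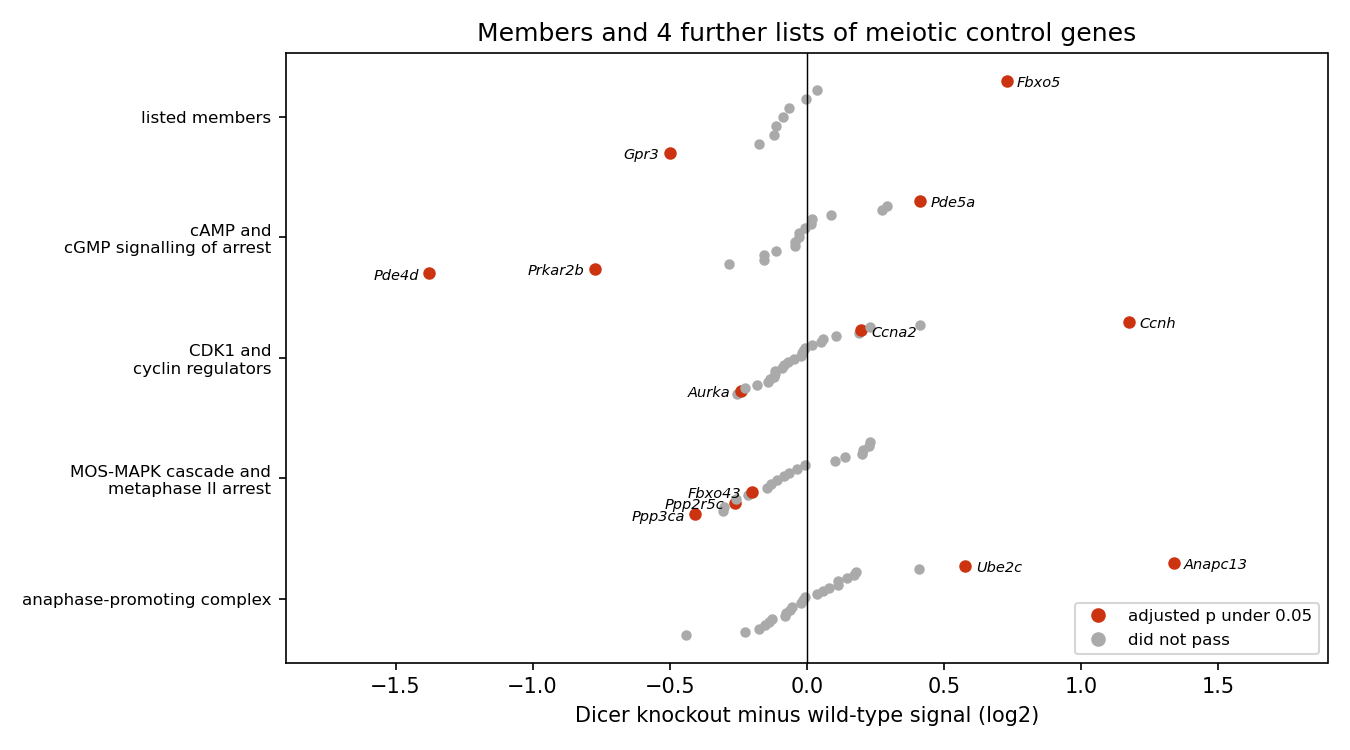
Log2 difference of Dicer knockout from wild-type oocytes for the 9 measured members and the tested genes of 4 further lists, 1 point per gene ordered by value within its list. Red points passed limma at an adjusted p under 0.05 and are named. Most points lie close to 0, and the medians of the 4 lists run from -0.09 to -0.01.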

How the data were processed

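RNA of metaphase II oocytes was measured on 9 single-colour Affymetrix arrays, 3 per genotype, grouped by the labelled genotype. The deposited values are log2 signals that the authors made with GCRMA, per the submitters' processing notes; neither its version nor its settings were stated there. Arrays carry no counts, so the number of arrays limits the precision. Arrays had medians of 5.48 to 5.58, and the median half-width of a gene's 95% interval was 0.23 (log2). Of 35557 probe sets, 21789 had 1 gene symbol in the platform annotation, 1621 had several and 12147 were unnamed here. A gene was represented by its probe set of highest mean, and 17324 genes with a log2 signal of at least 4 in at least 3 arrays were tested.

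All 9 arrays entered 1 fit by genotype with limma 3.58.1 (R 4.3.3, statmod 1.5.0; trended, robust eBayes; two-sided), and p-values were adjusted by Benjamini-Hochberg over all genes tested. Nothing in the labels tells separate animals apart, so p-values measure the spread between these samples. Intervals are not adjusted for the number of genes. The genes named are the members, the targeted genes, called genes of the 4 further lists (at most 6 a list), called markers of other cell types and, for each member called in Dicer knockout against wild-type oocytes, the 3 genes of nearest pattern. The members and lists were chosen with earlier results of these data known. Alternatives changed the floor, the scaling, the probe set rule, the fit, the threshold and each array in turn. Same-numbered arrays of Dicer knockout and wild-type oocytes deviated together at r of 0.038 to 0.112, and differently numbered ones at -0.138 to 0.051. For same-numbered arrays r was -0.199 to -0.015 in Dgcr8 knockout against wild-type and -0.235 to 0.063 in Dicer knockout against Dgcr8 knockout. The 3 comparisons did not go 1 way, so replicate numbers were not taken to pair the samples, and a block on them was an alternative. Promoter windows are RefSeq's for GRCm38.p6; the deposited values name no build. Ccnb1 levels are not analysed here.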

Additional observations from a re-analysis of the deposited data

How the results depend on the processing

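No alternative turned the direction of a called change among the members. Under the alternatives, 497 values of members stayed on their side of the threshold, 15 were no longer called and 1 was newly called; every exception was Pde3a. Of 418 values of members that were not called, 31 had the other sign under an alternative, none larger than 0.12 in size (log2). The cause of these changes was not tested.

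At an adjusted p under 0.01, 981 genes and 5 pathway genes were called in Dicer knockout against wild-type oocytes and 1127 and 7 in Dicer knockout against Dgcr8 knockout oocytes. With a 2-fold change also required, the counts were 358 genes, 0 members and 3 pathway genes, and 391, 0 and 3. Both are stricter by construction. With only the 2 groups compared in the fit, 2 genes in place of 4 were called in Dgcr8 knockout against wild-type oocytes; the cause was not tested. Without single arrays, genes called were 2 to 4 in that comparison (2 without wild-type replicate 1 or any 1 Dgcr8 knockout array), 1238 to 1959 in Dicer knockout against wild-type (1238 without wild-type replicate 3) and 1511 to 2248 in Dicer knockout against Dgcr8 knockout (1511 without Dgcr8 knockout replicate 1). Members called were 0, 2 and 2 to 3, and pathway genes 0, 6 to 12 (6 without wild-type replicate 1) and 8 to 13.

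Replicate numbers were not shown to pair the arrays. With the replicate number as a block, 3, 1797 and 2105 genes, 0, 2 and 2 members and 0, 11 and 11 pathway genes were called in the 3 comparisons, in the same order. The member no longer called with the block was Pde3a (adjusted p 0.0847), while Camk2g was called in Dicer knockout against wild-type oocytes (adjusted p 0.0437). Each Dicer knockout array correlated best with the wild-type array of its own number, but in the other comparisons not every array did.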
